A study of Homo sapiens with 6 samples.

Results

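Mucin-type O-glycosylation enzymes and galectins were followed in DU-145-DR cells in which MUC1 was silenced. The 10 genes examined were 5 polypeptide GalNAc-transferases (GALNT1, GALNT2, GALNT3, GALNT6 and GALNT7), C1GALT1 and C1GALT1C1, GCNT1, and the galectins LGALS1 and LGALS3. They were chosen by name, as enzymes that start or build the core of O-glycans and as galectins that bind MUC1, and all 10 were found among the 28008 genes of the table. DU-145 is a human prostate cancer cell line, and DU-145-DR cells were derived from it by continuous exposure to docetaxel (DTX). All 6 libraries came from DU-145-DR/tet-MUC1shRNA cells, which carry a doxycycline (DOX)-inducible MUC1 hairpin in a pLKO-tet-puro vector and were selected in puromycin. Cells given DMSO vehicle (DOX-negative, n = 3) were compared with cells given 500 ng/ml DOX (DOX-positive, n = 3). The labels name the hairpin on the DOX-positive libraries only, and they do not state whether the transduced cells were 1 clone or a pool. The study gives the time in DOX as a week. Silencing of MUC1 and exposure to DOX cannot be told apart, because cells with a control hairpin given DOX were not analysed here.

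MUC1 is a transmembrane mucin whose extracellular domain is densely O-glycosylated. Mucin-type O-glycosylation starts in the Golgi, where GALNT enzymes place GalNAc on serine or threonine to give the Tn antigen. C1GALT1 adds galactose to form core 1 (the T antigen) and needs the chaperone C1GALT1C1, also called COSMC, while GCNT1 branches core 1 to core 2. Sialic acid, fucose and sulfate can then cap the chains, and galectins bind the galactose-containing ends.

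Promoter windows are shown for the 3 genes with the largest changes among the 10, GALNT3, GCNT1 and C1GALT1C1. Each window holds 250 bases before to 50 bases after a RefSeq transcription start on GRCh38.p14 and is written 5′ to 3′ on the strand of the gene. Capitals mark CAGGTG or its reverse complement CACCTG, an E-box form recognised by the ZEB and SNAIL families of transcription factors. The GALNT3 window is chr2:165794198-165794497 on the minus strand, the GCNT1 window, around the third of its annotated starts and the only GCNT1 window with the capitals, is chr9:76458932-76459231 on the plus strand, and the C1GALT1C1 window is chrX:120630005-120630304 on the minus strand.
GALNT3: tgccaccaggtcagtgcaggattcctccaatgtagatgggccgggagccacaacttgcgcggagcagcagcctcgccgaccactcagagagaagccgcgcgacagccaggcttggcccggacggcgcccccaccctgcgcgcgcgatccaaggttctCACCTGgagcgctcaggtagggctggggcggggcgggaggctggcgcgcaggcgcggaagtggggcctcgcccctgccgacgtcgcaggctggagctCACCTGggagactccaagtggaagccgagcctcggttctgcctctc
GCNT1: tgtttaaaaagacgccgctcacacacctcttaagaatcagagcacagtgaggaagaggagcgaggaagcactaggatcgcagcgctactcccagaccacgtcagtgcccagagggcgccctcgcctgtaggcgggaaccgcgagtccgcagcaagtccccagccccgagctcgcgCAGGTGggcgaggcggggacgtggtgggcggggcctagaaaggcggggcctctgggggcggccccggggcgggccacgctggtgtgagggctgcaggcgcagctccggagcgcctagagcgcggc
C1GALT1C1: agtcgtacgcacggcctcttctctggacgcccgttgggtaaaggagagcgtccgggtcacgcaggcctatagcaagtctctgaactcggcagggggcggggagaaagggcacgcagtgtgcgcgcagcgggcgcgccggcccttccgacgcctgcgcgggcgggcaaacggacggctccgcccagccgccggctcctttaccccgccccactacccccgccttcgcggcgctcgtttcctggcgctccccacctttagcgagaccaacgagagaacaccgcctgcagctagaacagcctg
GALNT3 held the E-box form at 2 places, 93 bases before and 4 bases after the start, and GCNT1 held it once, 75 bases before this start. No other window among the 13 that matched 8 of the 10 genes held these letters, so 2 of the 13 held them. Both windows of MUC1, the silenced gene, also held the form at 2 places. These lay at -82 and -75 from 1 start and at -88 and -81 from the other. GALNT6 and LGALS1 had no entry. Of 35116 RefSeq promoter windows, 20.6% held the form at least once and 3.49% at least 2 times, and these matches describe sequence only.

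Total counts ran from 15092691 to 23243713 per library, so that 3 counts corresponded to 0.129 to 0.199 CPM, which are counts scaled to library size. MUC1 checked the labels: its level was 21.3, 24.7 and 19.7 CPM in the DOX-negative libraries and 3.27, 3.86 and 4.43 CPM in the DOX-positive libraries. MUC1 thus lay lower in every DOX-positive library (log2 fold change -2.52, SE 0.15, adjusted p = 4.47e-11 by edgeR). The summed fibroblast and endothelial markers stayed at or under 6.26 and 1.13 CPM. The 5 epithelial markers EPCAM, KRT8, KRT18, KRT19 and CDH1 all rose, and their summed level went from 757 to 837 CPM in DOX-negative libraries to 1444 to 1516 CPM in DOX-positive libraries. Of the 5 leukocyte markers only CD68, a lysosomal protein gene, passed the filter on low counts, and it rose from 100.4 ± 7.94 to 169 ± 10.5 CPM (SD, n = 3, log2 fold change 0.75, edgeR adjusted p = 8.39e-08). The part of these marker changes in the results for the O-glycan genes was not tested.

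Transcripts of 6 of the 10 genes changed with DOX. GALNT3, GCNT1, LGALS3 and GALNT1 rose and C1GALT1C1 and LGALS1 fell, by edgeR's quasi-likelihood test with Benjamini-Hochberg adjusted p under 0.05 over 14292 genes. GALNT2, GALNT6, GALNT7 and C1GALT1 did not pass. The same rule called 26.7% of all genes tested, 13.0% higher and 13.7% lower in DOX-positive cells, against 60% of these 10. The 10 genes and the other lists below were chosen with earlier results of these data known. Their shares are therefore set beside that of all genes as description only. The DOX-negative and DOX-positive CPM did not overlap for 6 of the 10 genes, beside 39.8% of all genes tested. All 10 passed the filter on low counts, and their median log2 fold change was 0.02, beside -0.0034 over all genes. The changes of GALNT3, GCNT1 and C1GALT1C1 kept their calls when any 1 library was left out, whereas those of GALNT1, LGALS1 and LGALS3 did not. In these bulk cultures, fewer cells making a transcript and less of it per cell cannot be told apart.

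**Figure D1:**
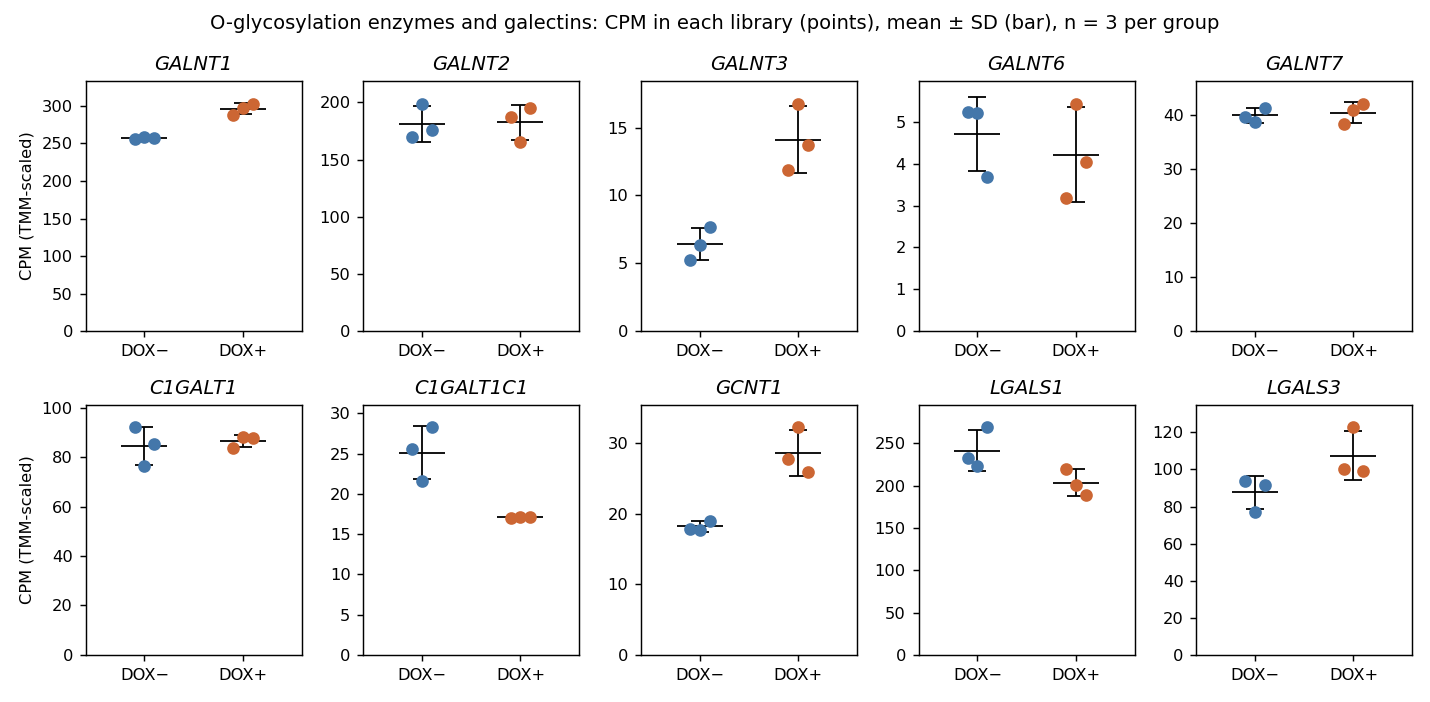
CPM (TMM-scaled, vertical axis from 0) of the 10 genes in each DOX-negative (blue) and DOX-positive (orange) library, with the horizontal line at the mean and bars of ± 1 SD (n = 3). The groups are separate for GALNT1, GALNT3, C1GALT1C1, GCNT1, LGALS1 and LGALS3, and GALNT3 goes from 5.28 to 7.66 CPM in DOX-negative to 11.8 to 16.8 CPM in DOX-positive libraries.

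Among the initiating enzymes, GALNT3 had the largest change. GALNT3 (ENSG00000115339.13) lies on the minus strand of chromosome 2 from 165747591 to 165794682 (GRCh38, GENCODE 29), and its enzyme is known for glycosylating FGF23. Its level was 5.28, 6.34 and 7.66 CPM in DOX-negative libraries and 11.8, 16.8 and 13.7 CPM in DOX-positive libraries. The lowest DOX-positive library lay above the highest DOX-negative library. The log2 fold change was 1.13 ± 0.16 (SE, 95% interval 0.80 to 1.46, edgeR adjusted p = 1.52e-05), or 2.18-fold. These values rest on 96 to 154 counts per DOX-negative library and 204 to 321 counts per DOX-positive library. No annotated exon of another gene overlapped those of GALNT3.

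GALNT1 and GALNT2 encode broadly expressed GalNAc-transferases. GALNT1 (ENSG00000141429.13) lies on the plus strand of chromosome 18 from 35581117 to 35711834 and GALNT2 (ENSG00000143641.9) on the plus strand of chromosome 1 from 230057990 to 230282124. GALNT1 was at 256, 259 and 257 CPM in DOX-negative libraries and 288, 297 and 303 CPM in DOX-positive libraries. The groups did not overlap, and the rise was small, 1.15-fold (log2 fold change 0.20 ± 0.06, SE, edgeR adjusted p = 0.0136). The call was lost without DOX-negative replicate 1 (adjusted p = 0.0629, edgeR) or without DOX-positive replicate 3 (adjusted p = 0.0680, edgeR), with log2 fold changes from 0.19 to 0.22 across all single-library omissions.

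GALNT2 was at 169, 199 and 176 CPM in DOX-negative libraries and 187, 166 and 195 CPM in DOX-positive libraries. The groups overlapped, and the log2 fold change of 0.0092 had a 95% interval of -0.14 to 0.16 (edgeR adjusted p = 0.945). Annotated noncoding genes overlap exons of GALNT2 (AL136988.1) and GALNT7 (AC097534.1 and AC105285.1) on the opposite strand and are not in the count table.

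GALNT7 encodes an isoenzyme that prefers peptides already carrying GalNAc, and GALNT6 encodes a close relative of the GALNT3 enzyme. GALNT7 (ENSG00000109586.11) lies on the plus strand of chromosome 4 from 173168753 to 173323967, and GALNT6 (ENSG00000139629.15) on the minus strand of chromosome 12 from 51351247 to 51392867. GALNT7 was at 39.7, 38.7 and 41.4 CPM in DOX-negative libraries and 38.3, 40.9 and 42.1 CPM in DOX-positive libraries, so the groups overlapped (log2 fold change 0.02, 95% interval -0.15 to 0.19, edgeR adjusted p = 0.91). GALNT6, the least abundant of the 10, was at 5.23, 5.21 and 3.68 CPM in DOX-negative libraries and 3.18, 5.43 and 4.03 CPM in DOX-positive libraries. These ranges overlapped as well (log2 fold change -0.16, 95% interval -0.61 to 0.29, edgeR adjusted p = 0.628). Exons of GALNT6 overlap those of SLC4A8 on the opposite strand, which had 569, 580 and 643 counts in DOX-negative and 250, 248 and 197 counts in DOX-positive libraries. The library kit kept strand, but the sources used here do not state whether the counting used it, so reads of the pair may not have been kept apart.

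The composition of the GALNT family was compared per library from TPM, which scale counts by transcript length as well as library size, here rescaled without 5 abundant short noncoding RNAs. Of 20 GALNT genes, GALNT1 made up 41.0% ± 0.866 of the summed TPM in DOX-negative and 42.5% ± 0.473 in DOX-positive libraries (SD, n = 3). GALNT2 followed with 20.8% ± 1.35 and 18.9% ± 1.37. Together GALNT1 and GALNT2 supplied between 60.3% and 62.7% in each of the 6 libraries. GALNT3 went from 1.03%, 1.18% and 1.44% in DOX-negative to 2.06%, 2.89% and 2.29% in DOX-positive libraries, and remained a minor component. The summed TPM of the family was 445, 475 and 446 in DOX-negative and 481, 496 and 513 in DOX-positive libraries, with no overlap between the groups.

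**Figure D2:**
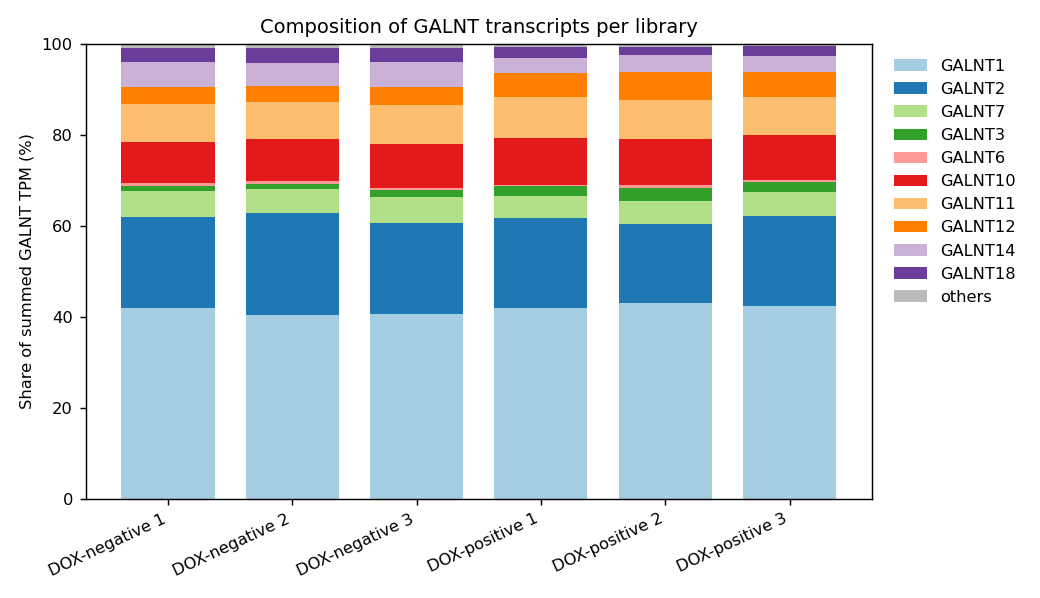
Share of the summed, rescaled TPM of 20 GALNT genes (vertical axis, percent) taken by each gene in each library, with the 10 remaining genes as others. GALNT1 and GALNT2 fill 60.3% to 62.7% of every bar, and GALNT3 widens from 1.22% to 2.41% on average.

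Other GALNT genes moved in both directions. Of 15 further initiation genes 6 passed the filter on low counts, 2 rose and 2 fell, or 66.7% called beside 26.7% of all genes. GALNT12 rose from 16.5 ± 1.03 to 27.2 ± 2.47 CPM (SD, n = 3, log2 fold change 0.72 ± 0.10, SE, edgeR adjusted p = 2.18e-05). GALNT10, whose product also prefers peptides that carry GalNAc, rose from 93.1 ± 5.14 to 111 ± 0.304 CPM (log2 fold change 0.26 ± 0.07, edgeR adjusted p = 0.00652), but not past the threshold without DOX-negative replicate 1 (adjusted p = 0.0638, edgeR). GALNT14 fell from 29.3 ± 1.05 to 21.4 ± 1.47 CPM (log2 fold change -0.46 ± 0.10, edgeR adjusted p = 0.001). GALNT18 fell from 12.3 ± 0.614 to 9.33 ± 1.63 CPM (log2 fold change -0.40 ± 0.14, edgeR adjusted p = 0.0383), a call held in 6 of 15 alternative settings and, of the single libraries, only when DOX-positive replicate 1 was the 1 left out (adjusted p = 0.0172 there and up to 0.159 otherwise, edgeR). GALNT13, GALNT15, GALNT17, GALNTL5 and GALNTL6 had no read in any library, a limit of 0.199 CPM in the shallowest.

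The core 1 chaperone fell, and the core 1 enzyme did not pass the test. C1GALT1C1 (ENSG00000171155.7), on the minus strand of chromosome X from 120625793 to 120630150, was at 25.5, 21.6 and 28.2 CPM in DOX-negative libraries and 17.0, 17.2 and 17.1 CPM in DOX-positive libraries. All DOX-positive libraries lay below all DOX-negative libraries, and the DOX-positive values were nearly the same. C1GALT1C1 fell by 0.55 on the log2 scale, ± 0.11 (SE, 95% interval -0.78 to -0.33, edgeR adjusted p = 0.000579), to 0.681 of its DOX-negative level. C1GALT1 (ENSG00000106392.10), on the plus strand of chromosome 7 from 7156934 to 7248651, was at 92.0, 76.6 and 85.4 CPM in DOX-negative and 83.6, 88.3 and 87.6 CPM in DOX-positive libraries. Its groups overlapped (log2 fold change 0.03, 95% interval -0.13 to 0.19, edgeR adjusted p = 0.81), and the difference between the 2 changes was not tested. Annotation lists 3 pseudogenes named after C1GALT1, none of them in the count table, and reads shared with them could affect its level.

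GCNT1, a core 2 branching enzyme, rose. GCNT1 (ENSG00000187210.13) lies on the plus strand of chromosome 9 from 76419850 to 76651203. It was at 17.9, 17.7 and 19.0 CPM in DOX-negative libraries and 27.7, 32.3 and 26.0 CPM in DOX-positive libraries. The groups were well apart, with a log2 fold change of 0.66 ± 0.10 (SE, with 95% interval 0.44 to 0.87, edgeR adjusted p = 5.76e-05), or 1.58-fold. PRUNE2, whose exons overlap those of GCNT1 on the opposite strand, had 204, 182 and 196 counts in DOX-negative and 266, 243 and 178 counts in DOX-positive libraries. GCNT1 had 325 to 637 counts per library. As for GALNT6 and SLC4A8, reads of the pair may not have been kept apart, and the part of this in the GCNT1 rise was not tested. Annotation also lists 5 pseudogenes named after GCNT1, none of them in the count table.

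The log2 ratio of GCNT1 to C1GALT1, taken within each library from rescaled TPM, was -2.48, -2.22 and -2.28 in DOX-negative libraries and -1.70, -1.57 and -1.86 in DOX-positive libraries. GCNT1 was therefore less abundant per length than C1GALT1 in every library, by a smaller margin with DOX, and the groups did not overlap. The mean ratio was higher by 0.61 on the log2 scale in DOX-positive cells, and by 0.54 to 0.69 when any 1 library was left out. With log2 fold changes of 0.66 for GCNT1 and 0.03 for C1GALT1, this restates the GCNT1 rise and is no separate result. The limit from the PRUNE2 overlap applies to it as well.

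Of 10 other genes that branch or extend core structures, 8 were tested, 1 rose and 2 fell, or 37.5% called beside 26.7% of all genes. B3GNT3, which extends core 1, rose from 8.36, 6.39 and 7.21 CPM to 15.1, 14.8 and 16.7 CPM (log2 fold change 1.08 ± 0.13, SE, edgeR adjusted p = 3.02e-06). Of the genes homologous to GCNT1, GCNT2 and GCNT3 were called lower and GCNT4, named after its values were seen, was at 2.26, 2.50 and 2.49 CPM in DOX-negative and 3.61, 3.55 and 3.76 CPM in DOX-positive libraries. The GCNT4 groups did not overlap, but the gene missed the threshold (log2 fold change 0.59 ± 0.22, SE, adjusted p = 0.0526 by edgeR). GCNT2, which makes I branches, fell from 41.2, 44.0 and 43.0 CPM to 30.2, 24.2 and 32.9 CPM (log2 fold change -0.56 ± 0.10, SE, edgeR adjusted p = 0.000221). GCNT3, a mucin-type core 2 and core 4 enzyme, fell from 26.7, 25.5 and 28.8 CPM to 21.7, 15.8 and 22.0 CPM (log2 fold change -0.45 ± 0.12, SE, edgeR adjusted p = 0.00619). B3GNT3, GCNT2 and GCNT3 had no overlap between groups, but neither did 39.8% of all genes tested. In this list the groups did not overlap for 5 of the 8 tested genes, called or not.

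Of 12 genes listed for sialic acid caps, 10 were tested, and 4 were called, 1 higher and 3 lower, or 40% beside 26.7% of all genes. ST3GAL1, which sialylates the galactose of core 1, rose from 4.73 ± 1.03 to 7.05 ± 1.30 CPM (SD, n = 3, log2 fold change 0.57 ± 0.19, SE, edgeR adjusted p = 0.0307), although the groups overlapped and the call held in 8 of 15 alternative settings. It was lost without DOX-negative replicate 1 or 2 or DOX-positive replicate 2 or 3 (adjusted p = 0.117, 0.111, 0.131 and 0.0639, edgeR). ST3GAL2, which uses the same kind of acceptor, fell from 47.8 ± 0.347 to 33.6 ± 4.65 CPM (log2 fold change -0.51 ± 0.09, edgeR adjusted p = 0.000329). ST6GALNAC3 and ST8SIA6, low in all libraries, fell by 1.04 and 0.81 on the log2 scale (SE 0.30 and 0.22, adjusted p = 0.0137 and 0.00775 by edgeR). The ST6GALNAC3 call was lost without DOX-negative replicate 2, DOX-positive replicate 1 or DOX-positive replicate 3 (adjusted p = 0.0506, 0.0602 and 0.0741, edgeR). None of 4 fucose and sulfate transferase genes tested, of 13 listed, passed, and FUT2 had no read in any library.

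All 19 genes of nucleotide sugar supply and transport were tested, 4 rose and 2 fell, or 31.6% called beside 26.7% of all genes. UAP1, which makes UDP-GlcNAc and UDP-GalNAc, rose from 258 ± 9.02 to 345 ± 11.3 CPM (SD, n = 3, log2 fold change 0.42 ± 0.06, SE, edgeR adjusted p = 2.14e-05). NANS, the sialic acid synthase, rose by 0.34 ± 0.09 on the log2 scale with overlapping groups (edgeR adjusted p = 0.0102), a call held in 10 of 15 alternative settings. It was lost without replicate 1 of either group (adjusted p = 0.0864 DOX-negative and 0.0528 DOX-positive, edgeR) and on rescaled TPM (adjusted p = 0.0648, limma). SLC35A3, a Golgi UDP-GlcNAc transporter, rose by 0.31 ± 0.07 (edgeR adjusted p = 0.00297). NANP, the phosphatase that follows NANS in sialic acid synthesis, fell from 33.6 ± 2.77 to 24.2 ± 1.29 CPM (log2 fold change -0.47 ± 0.09, edgeR adjusted p = 0.000651). GFPT2, at the entry of the hexosamine pathway, fell by 0.33 ± 0.09 in log2 CPM (edgeR adjusted p = 0.00653). Over all 83 further pathway genes, 50 were tested and 18 were called, 9 higher and 9 lower, or 36% beside 26.7% of all genes, with a median log2 fold change of 0.04.

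**Figure D3:**
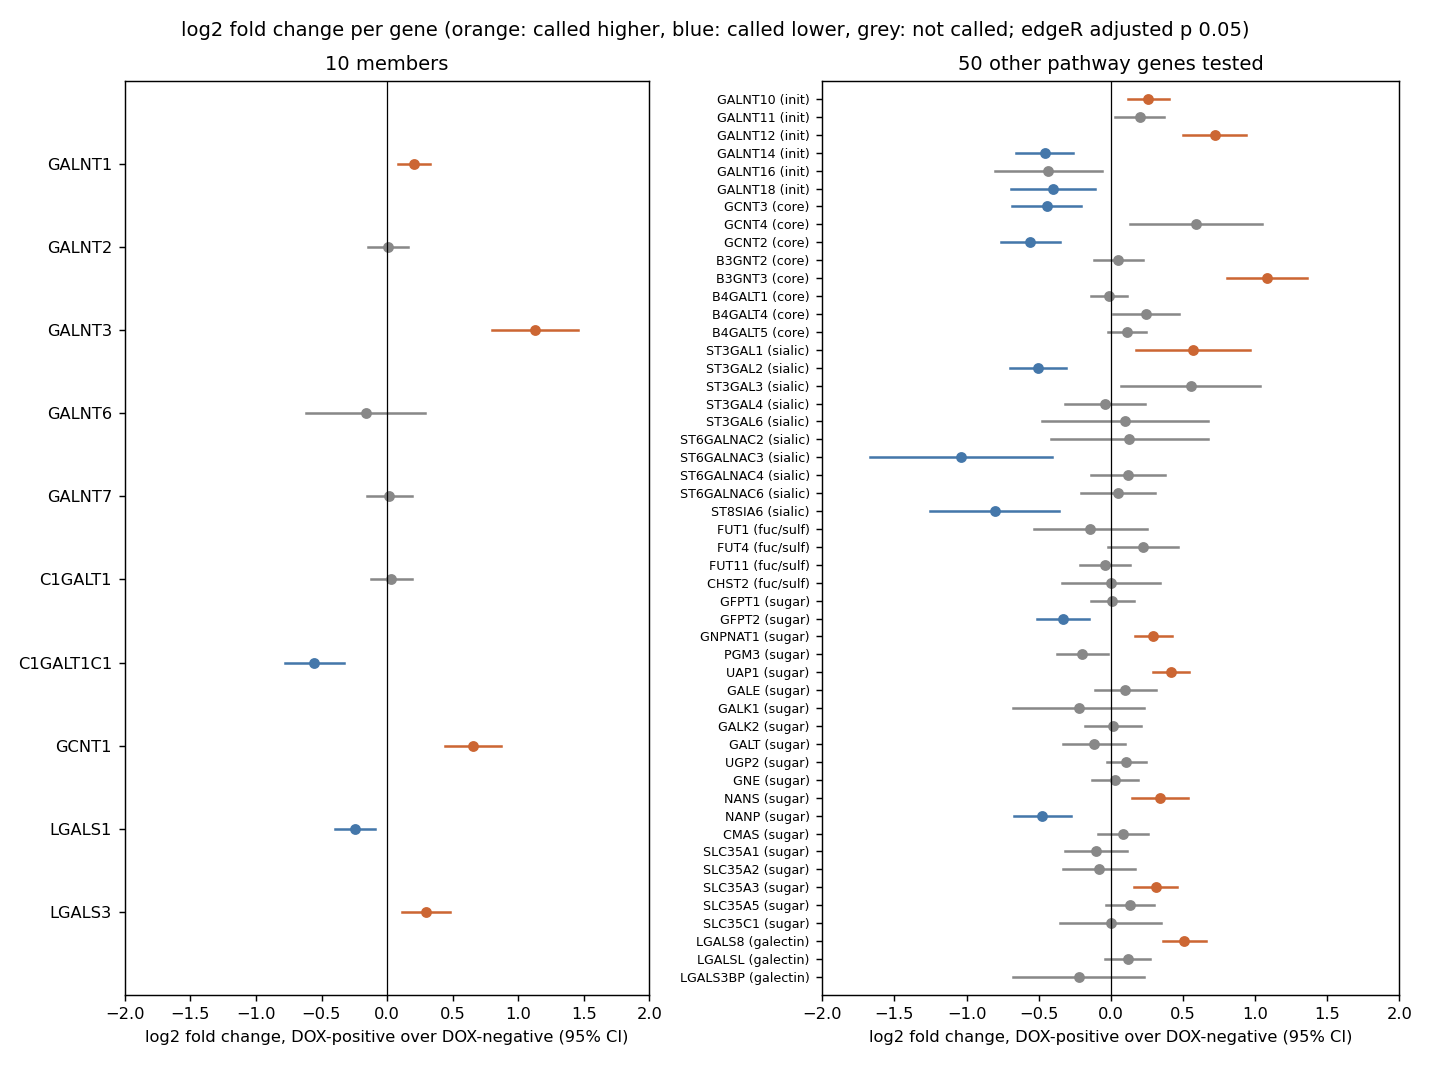
Log2 fold change (DOX-positive over DOX-negative, horizontal axis) with 95% interval for the 10 genes (left) and 50 further pathway genes tested (right), with role in brackets, in orange (called higher by edgeR), blue (called lower) or grey (not called). Calls lie on both sides of 0 in the initiation, core, sialic acid and sugar supply groups.

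LGALS1 and LGALS3, the galectins, moved in opposite directions by small amounts. LGALS1 encodes galectin-1, a dimeric galectin, and lies on the plus strand of chromosome 22 from 37675608 to 37679806 (ENSG00000100097.11). It was at 232, 223 and 269 CPM in DOX-negative libraries and 220, 201 and 189 CPM in DOX-positive libraries. The highest DOX-positive library lay just under the lowest DOX-negative library, and LGALS1 fell by 0.24 ± 0.07 on the log2 scale (SE, 95% interval -0.40 to -0.09, edgeR adjusted p = 0.0167). Without DOX-negative replicate 3 the log2 fold change was -0.16 (edgeR adjusted p = 0.126), and without DOX-positive replicate 3 the adjusted p was 0.0993 (edgeR).

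LGALS3 encodes galectin-3, a galectin known to bind MUC1, and lies on the plus strand of chromosome 14 from 55124110 to 55145413 (ENSG00000131981.15). It was at 93.7, 77.2 and 91.9 CPM in DOX-negative libraries and 100.4, 123 and 99.2 CPM in DOX-positive libraries. The groups were separate, with DOX-positive replicate 2 highest, and the log2 fold change was 0.30 ± 0.09 (SE, 95% interval 0.11 to 0.48, edgeR adjusted p = 0.0146). The call was lost without DOX-negative replicate 2 (log2 fold change 0.21, edgeR adjusted p = 0.0815) and without DOX-positive replicate 2 (log2 fold change 0.19, edgeR adjusted p = 0.0896).

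The log2 ratio of LGALS1 to LGALS3 within each library, from rescaled TPM, was 3.99, 4.22 and 4.23 in DOX-negative libraries and 3.83, 3.39 and 3.62 in DOX-positive libraries. LGALS1 was the more abundant of the pair in all 6, and the ratio was lower by 0.53 on the log2 scale with DOX, without overlap of the groups. The size of the ratio depends on the transcript length used. By CPM per kilobase of the longest GENCODE transcript, the DOX-negative means were 431 for LGALS1 and 76.4 for LGALS3, and the DOX-positive means 363 and 93.7. Left out 1 at a time, the libraries gave differences from -0.64 to -0.42. The ratio restates the LGALS1 fall and the LGALS3 rise and is no separate result. Of 14 other galectin and galectin ligand genes 3 were tested and 1 was called, or 33.3% beside 26.7% of all genes. LGALS8, a galectin with 2 carbohydrate-binding domains, rose from 54.6, 52.9 and 53.6 CPM to 73.8, 79.0 and 76.3 CPM (log2 fold change 0.51 ± 0.07, SE, edgeR adjusted p = 1.73e-05). LGALS2, LGALS7, LGALS7B, LGALS12, LGALS13, LGALS14 and LGALS16 had no read in any library.

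Per length, the 10 genes covered a wide range. In DOX-negative libraries the rescaled TPM ran, in order, from LGALS1 (2270 ± 161, SD, n = 3) through GALNT1 (186 ± 5.21), LGALS3 (128 ± 11.6), GALNT2 (94.9 ± 9.78), C1GALT1C1 (39.9 ± 4.34), C1GALT1 (36.6 ± 3.19), GALNT7 (25.5 ± 0.222), GCNT1 (7.29 ± 0.105) and GALNT3 (5.53 ± 0.916) to GALNT6 (2.87 ± 0.603). Among neighbours in that order, the ranges of C1GALT1C1 and C1GALT1 overlapped and the others did not. In DOX-positive libraries C1GALT1C1, at 26.7 ± 0.466 TPM, lay below C1GALT1, at 36.8 ± 1.59 TPM, and its range overlapped that of GALNT7, at 25.4 ± 1.53 TPM. GALNT3, at 12.0 ± 2.23 TPM, and GCNT1, at 11.3 ± 1.33 TPM, overlapped there as well. The order depends on the transcript length used. CPM per kilobase of the longest GENCODE transcript put LGALS3 above GALNT1 in both groups, and GCNT1 above GALNT3 in DOX-positive libraries. LGALS1 has a longest transcript of only 560 bases.

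**Figure D4:**
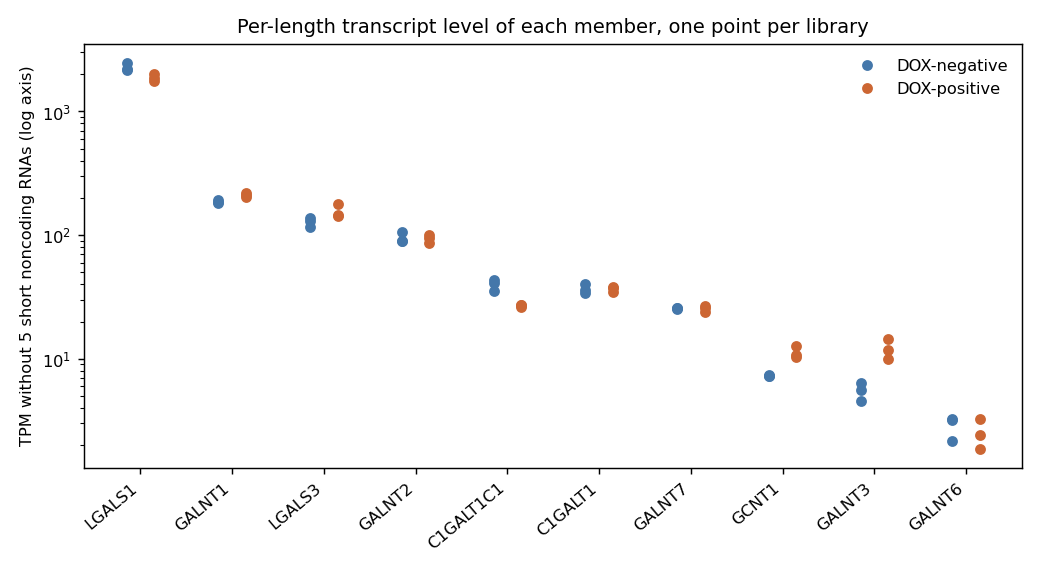
TPM of the 10 genes, rescaled without 5 short noncoding RNAs (logarithmic vertical axis), in each DOX-negative (blue) and DOX-positive (orange) library, ordered by the DOX-negative mean. C1GALT1C1 shifts from 39.9 to 26.7 TPM, below C1GALT1, and GALNT3 from 5.53 to 12.0 TPM, beside GCNT1.

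The heptamer ATCAGTA, known from an earlier scan of these data for words in transcripts that were lower with DOX, was counted in the longest transcript of each gene. It occurred in 18.1% of 12392 tested genes with a transcript, and since the word was picked on these data its relation to the changes was not tested. Of the 10 genes, GALNT1 and GALNT6 held 1 copy each, as did MUC1, and all others of the 10 held 0 copies.

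The genes nearest to GALNT3 in pattern were ADAM12, MARCKS and TFPI2, with root mean square differences of 0.115, 0.127 and 0.138 in centred log2 CPM over the 6 libraries, among 9947 genes compared. ADAM12 went from 11.2 to 24.1 CPM, MARCKS from 5.88 to 12.3 CPM and TFPI2 from 17.2 to 35.9 CPM on average. Because these genes were picked for likeness to GALNT3 in the same 6 libraries, their rises follow from the choice and are no separate result.

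**Figure D5:**
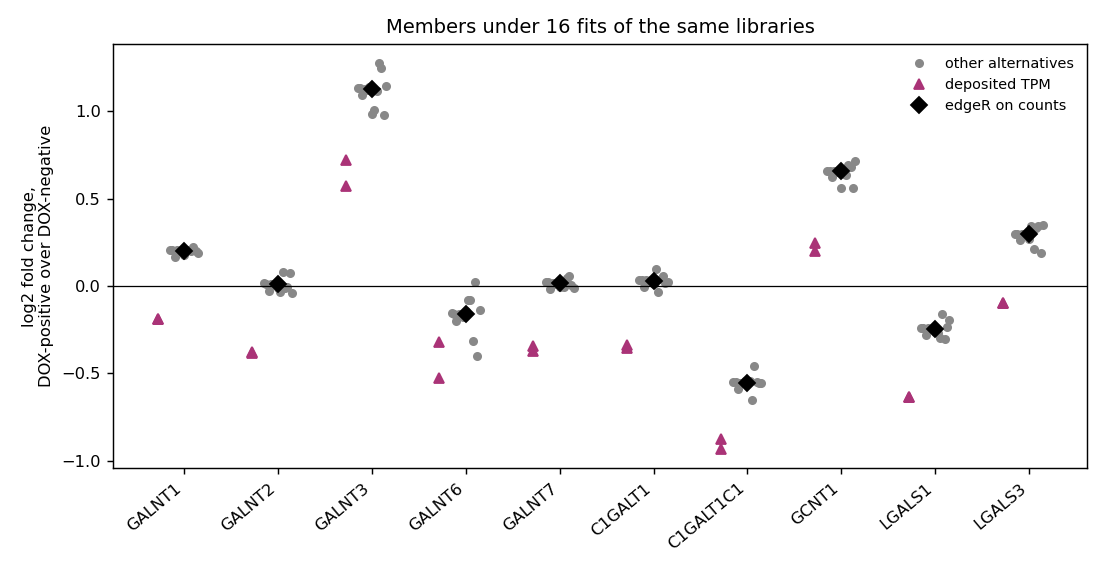
Log2 fold change (vertical axis) of the 10 genes under edgeR on counts (black), deposited TPM (purple triangles, both pseudocounts) and 13 other alternatives (grey). GALNT3 and GCNT1 stay above 0 and C1GALT1C1 and LGALS1 below 0 in all 16 fits, while GALNT1 and LGALS3 fall below 0 with deposited TPM.

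With the deposited TPM the values of all genes were shifted, with the median log2 fold change lower by 0.32 (pseudocount 1), and GALNT1 and LGALS3 took the opposite sign at -0.19 and -0.099, and none of the 10 genes was called. The 5 short noncoding RNAs filled 34.4% to 64.4% of the deposited TPM, from 0.488% to 1.76% of the counts. Rescaled without them, limma called 5 of the 10 genes, all but LGALS3 of the 6 above.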

How the data were processed

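Total RNA from triplicate cultures was sequenced from a stranded mRNA kit. The authors deposited whole-number read counts per gene and TPM for the same 6 libraries. The submitters' processing notes name STAR, DESeq2 and the build GRCh38, while versions, annotation, the counting step and its use of strand are not given in the sources used here. Deposited TPM depend on each library's short noncoding RNAs and were used only rescaled, or as an alternative.

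Counts were tested in edgeR 4.0.16 (R 4.3.3) with filterByExpr, TMM scaling, a quasi-likelihood fit with group as the only factor, and Benjamini-Hochberg adjustment over 14292 genes. Log2 fold changes are DOX-positive over DOX-negative, and CPM are TMM-scaled. With 3 libraries a group, p-values set each group difference against the spread between these cultures, moderated across genes. That spread may be technical, and floors of 3 counts cover counting error only. Between-gene levels used TPM rescaled to the same total without RN7SL1, RN7SL2, RN7SL3, RN7SK and RPPH1.

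Alternatives were a replicate block, DESeq2 1.42.0, total counts or RLE factors in place of TMM, a minimum of 10 counts per library or no filter, limma 3.58.1 on log2(TPM + 1) and log2(TPM + 0.1), rescaled TPM, and each library left out. Annotation came from GENCODE 29 and promoters from RefSeq. The test script was run on simulated data with known changes.

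The 10 genes and all lists were chosen with earlier results of these data known. Named pathway genes were up to 3 largest rises and 3 largest falls per role among called genes with an average log2 CPM of at least 1, plus genes at 0 counts in every library. The overlapping genes SLC4A8 and PRUNE2 were named after their values were seen. No library duplicated another. A list of prostate luminal markers is not reported here.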

Additional observations from a re-analysis of the deposited data

How the results depend on the processing

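DESeq2, RLE factors, total counts, no filter, a minimum of 10 counts and the replicate block each called 6 of the 10 genes. Omitting any 1 library called 4 to 6, with 2784 to 3645 genes called in all, 14 to 19 of them pathway genes, and MUC1 between -2.62 and -2.41. Same-numbered libraries did not deviate together (r = -0.070, -0.145 and -0.037), so the numbers were not taken as pairs. The replicate block called 3158 genes, 3136 of them shared with the 3816 called without it, and 17 pathway genes, and MUC1 was -2.52. GALNT18 was lost under the block (adjusted p = 0.0535).

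Deposited TPM lowered the median of all genes by 0.32 (pseudocount 1) and 0.38 (pseudocount 0.1), and the calls went to 443 and 408 genes, 0 and 0 of the 10 genes, and 0 and 0 pathway genes. Only 6.77% and 7.11% of those calls were higher, beside 48.8% in the edgeR fit. In these settings the log2 fold changes that changed sign were, in order of pseudocount, GALNT1 -0.19 and -0.19, LGALS3 -0.099 and -0.10, GALNT2 -0.38 and -0.38, GALNT7 -0.35 and -0.37, C1GALT1 -0.34 and -0.36, GALNT10 -0.13 and -0.13, NANS -0.048 and -0.048, and SLC35A3 -0.080 and -0.083. Total counts changed the sign of GALNT2 (-0.027), GALNT7 (-0.018) and C1GALT1 (-0.0035), and rescaled TPM that of GALNT2 (-0.015) and GALNT7 (-0.0064). Leaving out single libraries gave GALNT2 -0.039 to 0.082, GALNT6 -0.40 to 0.022, GALNT7 -0.012 to 0.055 and C1GALT1 -0.035 to 0.094. None of these 4 genes passed in any setting. Of 555 gene values under alternatives, 448 kept direction and side of the threshold, 78 no longer passed and 29 changed sign, and the cause was not tested.

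GALNT6, the least counted of the 10 genes, had 60 to 104 counts per library and the widest 95% interval, -0.61 to 0.29, and the part of depth in this was not tested.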
